A study of Mus musculus with 105 samples.

Results

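The genes described here are 32 mouse genes of glycolysis and the pentose phosphate pathway. They were taken by symbol from a given list, and all 32 were found among the 22322 genes of the count table. Their roles are sugar uptake and hexose entry (5 genes), upper glycolysis (9), lower glycolysis (6), pyruvate and lactate handling (5) and the pentose phosphate pathway (7). The filter on low exon counts kept 31 of them. Aldoc, a brain-type aldolase with 243 exon counts over all libraries, did not pass and was not tested, and neither Aldoc nor Tpi1 passed the filter on intron counts.

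The measurements are RNA sequencing counts of total RNA from CD4+ T cells, purified by negative selection from spleens and lymph nodes of 6 week old female C57BL/6J mice. Activated cells had met magnetic beads coated with anti-CD3 and anti-CD28 antibodies, unlike resting cells. The 35 groups of 3 libraries (21 activated, 14 resting) were collected at 0, 1 or 3 h without inhibitor or with 25 µM triptolide, 65 µM DRB (activated cells only), 100 µg/ml cycloheximide, 2 µg/ml harringtonine, or a transcription inhibitor together with a translation inhibitor. The series follows how long mRNAs last, and whether that depends on their translation, in resting and activated cells. Triptolide and DRB stop RNA polymerase II, cycloheximide stops ribosomes during elongation, and harringtonine stops them just after initiation. How long the beads had been present at 0 h is not given in the sources used here. The replicates are numbered 2, 3 and 4 and labelled biological, but nothing ties a number to a mouse, so the p-values measure the spread between these libraries.

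Glycolysis breaks glucose down to pyruvate, and lactate dehydrogenase turns pyruvate into lactate, which leaves the cell through monocarboxylate transporters. The pentose phosphate pathway branches off at glucose 6-phosphate and yields NADPH and ribose for nucleotides. Resting T cells are known to rely mostly on mitochondrial respiration, whereas T cells stimulated through the antigen receptor and CD28 take up more glucose and release more lactate.

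A library held between 6300 and 6479221 exon counts (median 2135827). Replicate 3 of resting cells after 1 h of triptolide was the shallowest (6300), followed by replicate 3 of activated untreated cells at 0 h (141028) and by one with 551975. In the library with 141028 counts, 1 count is worth 6.12 CPM (counts scaled to library size with TMM factors), so its zeros for Hk2, Galk1, Pfkm and Tpi1 allow levels up to 18.3 CPM (3 counts, counting error only). The summed activation markers Il2ra, Cd69 and Myc were at 2010 to 3710 CPM in activated untreated cells at 0 h, against 185 to 291 CPM in resting ones. The CD4 T cell list summed to 1370 to 1690 CPM in the activated libraries, against 1950 to 2250 CPM in the resting ones. B cell markers, 5 of 6 found, summed to 6.11 to 144 CPM in activated cells at 0 h, against 93.1 to 740 CPM in resting cells. At 3 h they summed to 20.4 to 106 CPM in activated cells, against 89.4 to 547 CPM in resting cells, and their part in the differences below was not tested. Erythroid (up to 12.2 CPM), CD8 T cell (up to 11.6), myeloid (up to 8.98) and NK cell (up to 6.11) lists were low in all untreated libraries at 0 and 3 h, and the platelet list did not pass 0.449 CPM.

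The regulatory letters of 5 members are shown because Hk2, Galk1, Slc16a1 and Ldha were among the members with the highest ratios of activated to resting cells at 3 h and Pdk1 had the lowest. Each run covers 250 bases before and 50 bases after an annotated RefSeq transcription start on GRCm38.p6, read 5′ to 3′ on the gene's strand. The locations are chr7:46845554-46845853 (plus strand) for Ldha, chr3:104638414-104638713 (plus) for Slc16a1, chr11:116012670-116012969 (minus) for Galk1, chr6:82774405-82774704 (minus) for Hk2 and chr2:71872974-71873273 (plus) for Pdk1. Capitals mark CACGTG, the palindromic E-box that MYC with MAX and related helix-loop-helix factors are known to bind.
Ldha promoter: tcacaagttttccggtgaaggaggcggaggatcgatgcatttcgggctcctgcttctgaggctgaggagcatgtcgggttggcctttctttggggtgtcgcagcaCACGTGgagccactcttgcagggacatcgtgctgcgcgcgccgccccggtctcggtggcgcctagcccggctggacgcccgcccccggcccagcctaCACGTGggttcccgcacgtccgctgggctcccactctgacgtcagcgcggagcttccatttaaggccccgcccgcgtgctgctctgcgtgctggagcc
Slc16a1 promoter: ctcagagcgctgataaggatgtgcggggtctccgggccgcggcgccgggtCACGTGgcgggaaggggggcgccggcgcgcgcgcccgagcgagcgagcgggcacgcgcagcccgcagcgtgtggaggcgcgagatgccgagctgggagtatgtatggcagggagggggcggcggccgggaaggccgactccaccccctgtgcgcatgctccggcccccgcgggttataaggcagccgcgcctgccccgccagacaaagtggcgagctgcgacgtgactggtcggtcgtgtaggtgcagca
Galk1 promoter: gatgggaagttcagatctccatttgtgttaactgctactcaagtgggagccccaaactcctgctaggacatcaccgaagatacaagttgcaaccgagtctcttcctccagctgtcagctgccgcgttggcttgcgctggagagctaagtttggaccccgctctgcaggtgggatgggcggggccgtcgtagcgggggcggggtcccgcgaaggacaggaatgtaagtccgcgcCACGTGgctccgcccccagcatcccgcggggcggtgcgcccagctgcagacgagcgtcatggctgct
Hk2 promoter: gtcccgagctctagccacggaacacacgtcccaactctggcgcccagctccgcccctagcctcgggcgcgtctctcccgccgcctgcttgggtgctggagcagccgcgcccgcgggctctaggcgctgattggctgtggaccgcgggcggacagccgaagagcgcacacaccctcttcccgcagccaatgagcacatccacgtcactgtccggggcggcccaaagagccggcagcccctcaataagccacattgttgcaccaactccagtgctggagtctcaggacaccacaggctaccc
Pdk1 promoter: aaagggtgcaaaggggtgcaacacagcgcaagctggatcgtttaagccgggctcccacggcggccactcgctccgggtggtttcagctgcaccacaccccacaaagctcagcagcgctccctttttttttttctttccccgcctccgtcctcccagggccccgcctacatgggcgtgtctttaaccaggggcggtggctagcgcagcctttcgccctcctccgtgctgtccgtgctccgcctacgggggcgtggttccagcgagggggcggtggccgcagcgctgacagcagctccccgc
The Ldha window holds 2 copies of CACGTG, the Slc16a1 and Galk1 windows 1 each, and the Hk2 and Pdk1 windows none. Where a member had several starts, the window with the most copies was printed. The other Ldha window (chr7:46846832-46847131) holds none. Pgam1, whose 3 h ratio was above that of Ldha, was not printed, and its window holds none. RefSeq promoter windows matched 31 members with 45 starts. Of these windows 5, or 11.11%, held CACGTG on either strand, against 7.15% of all 32851 windows of the same length, and they belong to Pfkfb3, Pfkm, Slc16a1, Ldha and Galk1. The shorter core ACGTG or GCGTG, which lies within CACGTG as well and is bound by HIF1 in known targets, was in 77.78% of member windows and 43.77% of all windows, counted on both strands. These matches are descriptions of the letters, and binding was not measured.

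Per kilobase of exon, a few glycolytic mRNAs far exceeded the rest in both states. In activated cells at 0 h the highest levels were those of Ldha (lactate dehydrogenase A) at 124 ± 36.2 CPM per kb, Pkm (pyruvate kinase) at 107 ± 25.6, Aldoa (aldolase A) at 80.4 ± 9.54 and Pgam1 (phosphoglycerate mutase) at 76.2 ± 6.79 (SD, n = 3). In resting cells Pkm came first at 125 ± 14.7 CPM per kb, before Ldha at 74.8 ± 7.86 and Aldoa at 42.4 ± 7.10. In activated cells each of these 4 overlapped its neighbour in this order, whereas in resting cells the ranges of Pkm, Ldha and Aldoa were apart. Some members share sequence with other genes at 97% identity or more over at least 50 bases, so the authors' counting may have lost or split their reads. This touches 94.2% of the Gapdh transcript (50 other genes), 85.6% of Eno1, 76.8% of Ldhb, 68.8% of Pgk1, 43.1% of Pgam1, 36.3% of Gpi1 and 19.3% of Tpi1, and levels of these genes are uncertain, while the other 25 have no such copy. Another annotated gene overlaps 17 of the 32 members, and the strand setting of the counting is not given in the sources used here.

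The comparison of activated with resting untreated cells asks which of these mRNAs move with stimulation. At 0 h 9 members were higher and 3 were lower in activated cells. The higher ones span every role: Hk2 and Slc2a1 at entry, Pfkfb3 and Aldoa in upper glycolysis, Pgam1 in lower glycolysis, Ldha and Slc16a1 at the lactate end, and Pgd and Tkt in the pentose phosphate pathway. The lower ones were Pdk1, Bpgm and Tpi1. A call means a Benjamini-Hochberg adjusted p under 0.05 from edgeR's quasi-likelihood test over 10741 genes, and changes are log2 values ± SE relative to the typical mRNA. Among all genes tested 26.7% were called at 0 h, 13.9% as higher and 12.9% as lower, against 38.7% of the 31 tested members. The median member changed by -0.07 and the median gene by -0.01. Without replicate 2 the count of members was 6. The calls of Hk2, Slc2a1, Pfkfb3, Aldoa, Ldha, Pgd and Tpi1 were lost there. The spread of higher members over every role thus depends on replicate 2, since none of those named at entry or in upper glycolysis was left. The call of Tkt was lost without replicate 3 and without replicate 4.

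By 3 h more members were called. In activated cells 14 members were higher and 4 lower than in resting cells, 58.1% of those tested, against 53.8% of all genes, 26.3% as higher and 27.5% as lower. The member median was 0.42 and the median of all genes -0.04, which RLE (median-ratio) scaling shifts by 0.14 with 14 members still higher and 3 lower. Galk1, Pgk1, Pkm, Pfkp and Rpia were higher at 3 h and not called at 0 h, Pfkfb4 and Ldhb were lower at 3 h and not called at 0 h, and Tpi1 lost its call. Whether a gap changed with time was tested apart and is given further on. Without activated 0 h replicate 3 and resting 1 h triptolide replicate 3, 13 members were called at 0 h and 17 at 3 h.

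**Figure D1:**
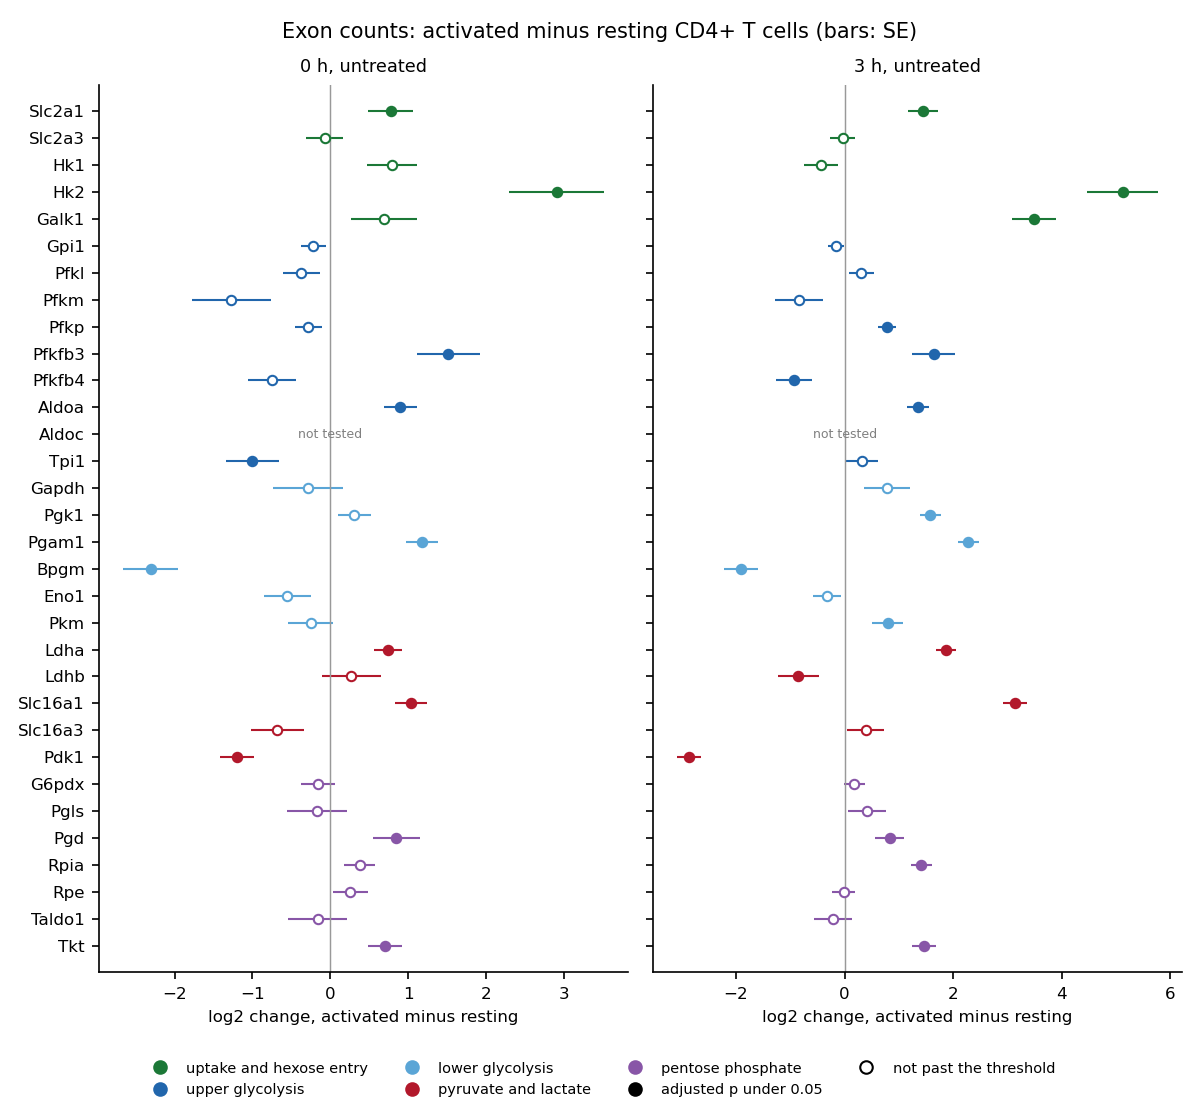
Log2 change, activated minus resting untreated cells, for the 31 tested members at 0 h and 3 h, grouped by role. Points are changes and bars are SE, and filled points passed an adjusted p under 0.05. Hk2, Galk1 and Slc16a1 lie farthest to the right at 3 h and Pdk1 farthest to the left.

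Sugar uptake and entry held the highest ratio. Hk2, the inducible hexokinase that traps glucose as glucose 6-phosphate, stood at 98.1, 34.7 and 80.7 CPM in activated cells at 3 h, against 4.70, 0.899 and 1.51 CPM in resting cells. Each activated library was above each resting one, and the change was 5.12 ± 0.65 (adjusted p = 2.17e-10). At 0 h its levels were 50.4, 0 and 18.5 CPM in activated cells, against 2.14, 4.65 and 5.33 CPM in resting cells (2.91 ± 0.61, adjusted p = 0.00013). The groups overlap there through the shallow replicate 3, and without replicate 2 the call was lost. Hk1, the housekeeping hexokinase, was not called at either time.

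Galk1, the kinase that brings galactose into the pathway, showed a gap at 3 h that was not called at 0 h. Its 3 h levels were 44.6, 47.3 and 61.2 CPM in activated cells, against 7.39, 5.84 and 2.02 CPM in resting cells, with no overlap (3.49 ± 0.41, adjusted p = 1.04e-11). Slc2a1, the glucose transporter GLUT1, stood at 74.4, 81.4 and 89.4 CPM in activated cells at 3 h, against 35.6, 25.6 and 29.5 CPM in resting cells (1.44 ± 0.28, adjusted p = 1.07e-05). At 0 h it was higher by 0.78 ± 0.29 (adjusted p = 0.0384), with overlapping groups. Slc2a3, the glucose transporter GLUT3, averaged 26.5 CPM in activated cells at 3 h, against 27.0 CPM in resting cells, and was not called.

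Upper glycolysis was mixed. Pfkfb3, which makes the allosteric activator fructose 2,6-bisphosphate, was higher at both times, by 1.52 ± 0.40 at 0 h and 1.64 ± 0.39 at 3 h, without overlap (adjusted p = 0.00214 and 0.000284). Its paralog Pfkfb4 stood at 3.19, 8.38 and 6.07 CPM in activated cells at 3 h, against 12.8, 10.8 and 9.32 CPM in resting cells, and was lower by a log2 change of -0.93 ± 0.33 (adjusted p = 0.0137). The Pfkfb4 call was lost under 4 of 11 alternatives, DESeq2 and leaving out replicate 2 or replicate 4 among them (-0.50 to -1.08), and the 3 h call of Pfkfb3 was lost without replicate 4 (1.22). Aldoa, which splits fructose 1,6-bisphosphate, was higher by 0.90 ± 0.21 at 0 h and 1.35 ± 0.20 at 3 h. Pfkp, the platelet-type phosphofructokinase, passed at 3 h at 0.78 ± 0.17, whereas the liver and muscle types Pfkl and Pfkm and the isomerase Gpi1 passed at neither time. Tpi1, triosephosphate isomerase, was lower at 0 h by a log2 change of -1.0 ± 0.34 (adjusted p = 0.0203) and not called at 3 h (0.32 ± 0.29). The 0 h call was lost under 4 of 11 alternatives, namely DESeq2, coding-sequence counts and leaving out replicate 2 or replicate 4 (-0.81 to -1.31).

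Lower glycolysis turned on Pgam1, which moves the phosphate of 3-phosphoglycerate. It stood at 159, 159 and 136 CPM in activated cells at 0 h, against 66.3, 65.1 and 66.5 CPM in resting cells (1.18 ± 0.21, adjusted p = 4.36e-06). At 3 h the levels were 266, 303 and 264 CPM in activated cells, against 63.1, 52.6 and 55.9 CPM in resting cells (2.28 ± 0.20, adjusted p = 1.62e-16). No activated library overlapped a resting one at either time. Pgk1, phosphoglycerate kinase, was higher by 1.58 ± 0.20 at 3 h and Pkm by 0.79 ± 0.29 (adjusted p = 1.03e-10 and 0.0163). Gapdh, glyceraldehyde 3-phosphate dehydrogenase, and Eno1, enolase, were not called at either time, and reads of both are shared with copies.

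Bpgm, which diverts 1,3-bisphosphoglycerate to 2,3-bisphosphoglycerate, went the other way. Its levels were 13.2, 12.2 and 15.0 CPM in activated cells at 0 h, against 86.6, 53.5 and 66.1 CPM in resting cells, with no overlap (-2.31 ± 0.35, adjusted p = 1.67e-07). At 3 h the change was -1.91 ± 0.32 (adjusted p = 5.42e-07). Bpgm is best known from red blood cells, and the erythroid markers beside it stayed at or under 12.2 CPM in sum in these libraries, with 0.93 to 5.88 CPM in the resting 0 h libraries. Whether red blood cells have a part in the Bpgm difference was not tested.

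At the lactate end, Ldha and the lactate exporter Slc16a1 (MCT1) were higher and Pdk1 was lower. Slc16a1 stood at 273, 159 and 196 CPM in activated cells at 0 h, against 135, 80.4 and 101 CPM in resting cells (1.04 ± 0.21, adjusted p = 5.19e-05). At 3 h it reached 431, 381 and 372 CPM in activated cells, against 41.0, 36.4 and 56.4 CPM in resting cells, an 8.75-fold ratio (3.13 ± 0.22, adjusted p = 1.13e-21). The 3 h groups were far apart and the 0 h groups did not overlap either. Ldha stood at 773, 813 and 645 CPM in activated cells at 3 h, against 202, 207 and 203 CPM in resting cells (1.87 ± 0.18, adjusted p = 2.39e-15). At 0 h its change was 0.74 ± 0.18 (adjusted p = 0.000712). Ldhb, the heart-type subunit, was lower at 3 h by a log2 change of -0.85 ± 0.37 with overlapping groups (adjusted p = 0.0437), a call lost under 8 of 11 alternatives (-0.51 to -1.01), and Slc16a3, the exporter MCT4, was not called at either time.

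Pdk1, the kinase that inhibits pyruvate dehydrogenase and so holds pyruvate out of the mitochondrial cycle, had the lowest ratio of all members at 3 h. Its levels were 36.9, 31.1 and 49.0 CPM in activated cells, against 245, 302 and 305 CPM in resting cells (-2.86 ± 0.22, adjusted p = 1.01e-19). At 0 h they were 47.9, 97.8 and 75.0 CPM in activated cells, against 165, 149 and 142 CPM in resting cells (-1.20 ± 0.22, adjusted p = 1.7e-05). The groups did not overlap at either time.

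In the pentose phosphate pathway the calls were all upward. Tkt, the transketolase of the non-oxidative branch, stood at 421, 493 and 574 CPM in activated cells at 3 h, against 230, 164 and 146 CPM in resting cells (1.47 ± 0.22, adjusted p = 1.36e-08). Rpia, ribose 5-phosphate isomerase, was higher at 3 h by 1.41 ± 0.19 (adjusted p = 9.71e-10), and Pgd, the second dehydrogenase of the oxidative branch, by 0.83 ± 0.27 (adjusted p = 0.00766). G6pdx, the entry enzyme of the pathway, averaged 42.8 CPM in activated cells, against 38.1 CPM in resting cells, and was not called, and the same holds for Pgls, Rpe and Taldo1.

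The tested members without a call at either time were Slc2a3, Hk1, Gpi1, Pfkl, Pfkm, Gapdh, Eno1, Slc16a3, G6pdx, Pgls, Rpe and Taldo1. Gapdh averaged 162 ± 65.8 CPM in activated cells at 3 h, against 94.9 ± 26.7 CPM in resting cells, with overlapping groups. Gpi1 averaged 137 ± 3.98 CPM in activated cells, against 154 ± 47.8 CPM in resting cells (SD, n = 3 each). Taldo1, the transaldolase that joins the pentose phosphate pathway to glycolysis, stood at 47.5, 124 and 98.5 CPM in activated cells, against 106, 98.4 and 108 CPM in resting cells. Pfkm was the lowest of them at 2.90 ± 0.541 CPM in activated cells, against 5.46 ± 1.22 CPM in resting cells. Its groups did not overlap at either time although it missed the threshold (adjusted p = 0.0511 at 0 h and 0.109 at 3 h). At 0 h the shallow activated replicate 3 held no Pfkm count, and its depth is too low to place that library below the resting ones. The log2 changes of these uncalled members at 3 h ran from -0.84 for Pfkm to 0.78 for Gapdh.

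The 1 h libraries lay on the same side for the main members. Slc16a1 stood at 316, 214 and 282 CPM in activated cells at 1 h, against 64.3, 57.4 and 70.4 CPM in resting cells. Ldha stood at 577, 660 and 520 CPM in activated cells, against 204, 176 and 204 CPM in resting cells. Pdk1 stood at 39.2, 43.4 and 53.1 CPM in activated cells, against 144, 167 and 156 CPM in resting cells. In none of the 3 did the groups overlap.

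**Figure D2:**
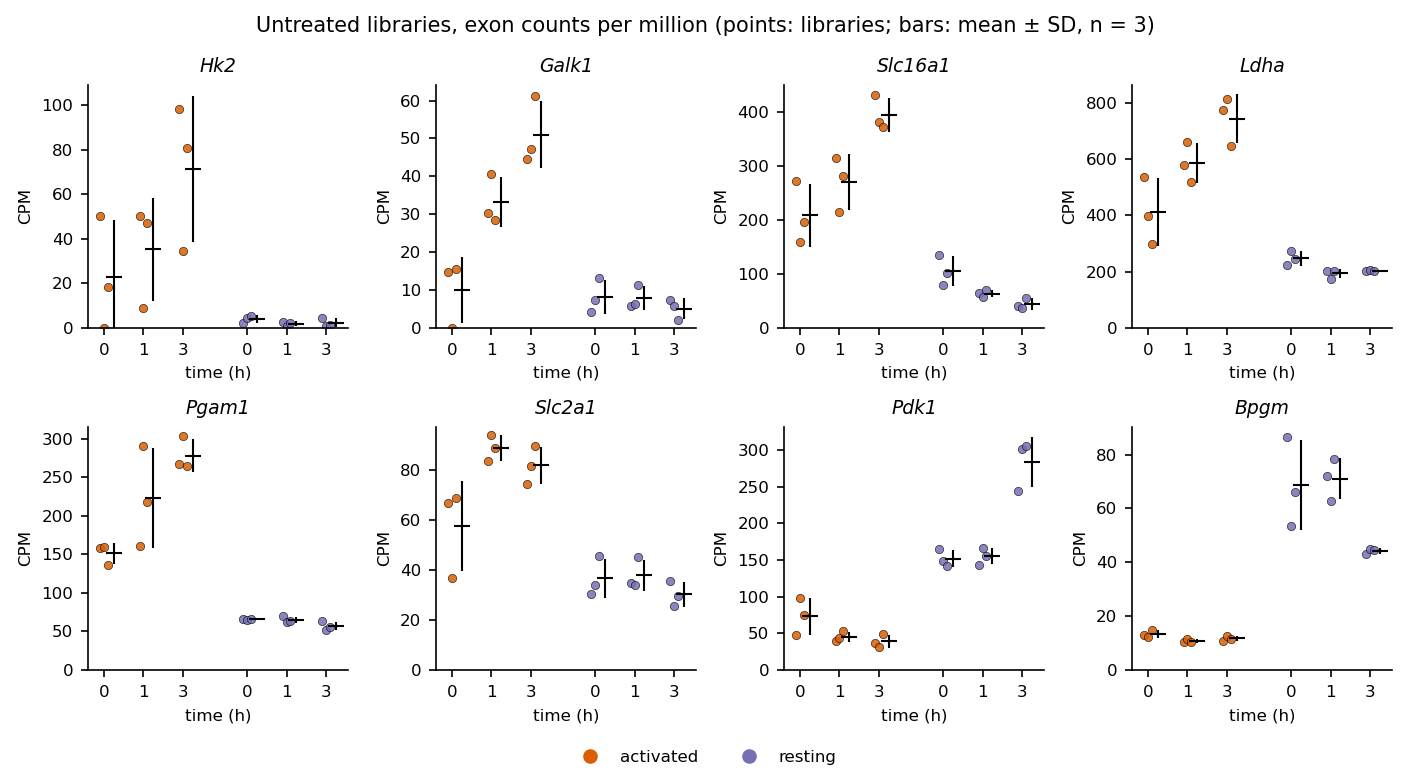
CPM of 8 members in untreated cells at 0, 1 and 3 h, with activated cells left of resting cells in each pair. Points are libraries, and lines with bars are the mean ± SD of 3. Slc16a1 in activated cells lies between 372 and 431 CPM at 3 h, above all resting libraries, whereas Pdk1 lies between 31.1 and 49.0 CPM, below all of them.

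Introns, which come from unspliced RNA, showed part of the same picture. At 0 h 7 members had higher and 2 lower intron counts in activated cells, or 30.0% of the 30 tested against 13.5% of 10750 genes. At 3 h 11 were higher and 2 lower, or 43.3% against 29.2% of all genes. The intron changes at 3 h were 6.30 ± 1.07 for Hk2, a fitted value that depends on the prior count because the resting libraries hold nearly none, 2.32 ± 0.41 for Slc16a1, 1.67 ± 0.34 for Tkt and 1.32 ± 0.39 for Ldha, and -2.46 ± 0.40 for Pdk1 and -2.13 ± 0.36 for Bpgm. All 6 carry the sign of their exon change. Without replicate 2 only 3 members were called in introns at 0 h. Cells taken at 0 h from the triptolide series did not repeat the upward excess in introns. There 2 members were higher and 3 lower in activated cells, where 17.8% of all genes were called (8.66% higher, 9.15% lower). Pgam1 and Galk1, with high exon ratios at 3 h, were not called in introns.

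ERCC spike-ins are synthetic RNAs, here added to RNA from cell numbers that the labels give as equal between times, and they allow a change per spike-in molecule to be given. On that scale the median gene was 0.60 higher in activated cells at 3 h, 21 members were higher and 2 lower, and 50.7% of all genes were called, 40.6% as higher and 10.1% as lower. The member median was 1.02. Changes per spike-in molecule were 3.78 ± 0.35 for Slc16a1, 2.91 ± 0.31 for Pgam1 and 2.5 ± 0.27 for Ldha, and -2.17 ± 0.26 for Pdk1 and -1.25 ± 0.41 for Bpgm. At 0 h 7 members were higher and 2 lower, where 14.2% of all genes were called. Without replicate 4 the spike-scaled counts were 14 at 3 h and 3 at 0 h, and without replicate 2 the count at 0 h was 2. A difference in cell number between the states, which was not tested, would shift all these values. In these bulk samples fewer cells expressing a gene and less RNA per cell cannot be told apart. The members' summed share of exon counts was 0.482 ± 0.0418% in activated and 0.265 ± 0.0376% in resting untreated cells at 3 h (SD, n = 3), and 0.323 ± 0.0231% and 0.274 ± 0.0173% at 0 h.

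In activated cells 9 members rose and 1 fell between 0 and 3 h, against 13.6% of all genes called (6.05% up, 7.56% down). The rises were Galk1 at 1.87 ± 0.38, Tpi1 at 1.17 ± 0.34, Tkt at 1.13 ± 0.22 and Pgk1 at 1.0 ± 0.20, with Pgam1, Slc16a1, Ldha, Aldoa and Rpia between 0.65 and 0.89, and Pdk1 fell by 0.75. Without replicate 4 none of the 10 calls was left, and the fall of Pdk1 was lost under 7 of 11 alternatives, the one without the 2 shallowest libraries among them (adjusted p = 0.0694). In resting cells Pdk1 rose by 0.91 ± 0.20, and Slc16a1 fell by 1.22, Slc16a3 by 1.14 and Pfkp by 0.88, the 4 calls where 6.39% of all genes were called (3.03% up, 3.36% down), and without replicate 4 only Slc16a1 was left. Cells taken at 0 h from the triptolide series gave 9 higher and 2 lower members in activated against resting cells, where 28.9% of all genes were called, 15.4% as higher and 13.5% as lower.

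The test of the change in the gap itself, activated minus resting at 3 h minus the same at 0 h, called 8 members upward and 1 downward, or 29.0% of those tested against 13.8% of all genes. Slc16a1 widened the most among them after Galk1, by 2.09 ± 0.29 (adjusted p = 1.22e-07), with the levels given above. Galk1 widened by 2.79 ± 0.59, Tpi1 by 1.32 ± 0.45, Pgk1 by 1.27 ± 0.29, Ldha by 1.13 ± 0.25, Pgam1 by 1.1 ± 0.28, Pfkp by 1.06 ± 0.24 and Rpia by 1.03 ± 0.27. The gap of Pdk1 moved by -1.66 ± 0.30 (adjusted p = 4.14e-05). Of these 9, Slc16a1 rose in activated and fell in resting cells. Pdk1 fell in activated and rose in resting cells, with its activated fall lost under 7 of 11 alternatives. The test of the gap was chosen after values had been seen, and without replicate 4 it called 3 members, Slc16a1, Ldha and Pdk1.

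Stopping transcription asks how fast each mRNA is lost. Levels per spike-in molecule fell for nearly all members within 3 h: 28 of 31 in activated cells with triptolide, 27 in activated cells with DRB and 27 in resting cells with triptolide. Most genes did the same, with 79.6%, 79.6% and 77.4% called, 77.7%, 78.2% and 75.5% as lower. The member medians of -1.12, -1.30 and -1.60 stand beside -1.68, -1.54 and -1.77 for all genes. The members differed widely in how much was left. Without replicate 4 the counts of lower members were 17, 17 and 21.

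Slc2a1 and Slc16a3 were among the 4 members with the least left in each arm, and Ldha among the 8. Slc2a1 stood at 0.0465, 0.0876 and 0.0757 exon counts per 1000 ERCC counts after 3 h of triptolide in activated cells, against 2.52, 1.38 and 1.41 at 0 h, which leaves 3.71% (-4.75 ± 0.51, adjusted p = 3.9e-13). It kept 8.71% in DRB and 7.0% in resting cells. Slc16a3 kept 3.08%, 10.4% and 7.90% in activated cells with triptolide, in activated cells with DRB and in resting cells with triptolide. These Slc16a3 shares rest on few counts, with 3.32, 4.93 and 9.20 CPM left at 3 h in the resting arm. Its lowest level in any library but the shallowest was 0.805 CPM. For Ldha, after 3 h of triptolide, 1.67, 2.30 and 1.06 counts per 1000 ERCC counts were left in activated cells against 15.3, 10.7 and 7.59 at 0 h, and the share left was 14.8%, 15.7% and 14.1% in the same 3 arms. No 3 h library of Slc2a1, Slc16a3 or Ldha overlapped a 0 h library of its arm. At the other end, Pkm kept 65.0%, 73.3% and 58.3%, of which only the last passed the test as a loss, and Gpi1 kept 56.4%, 43.8% and 74.7%, of which the last did not pass.

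**Figure D3:**
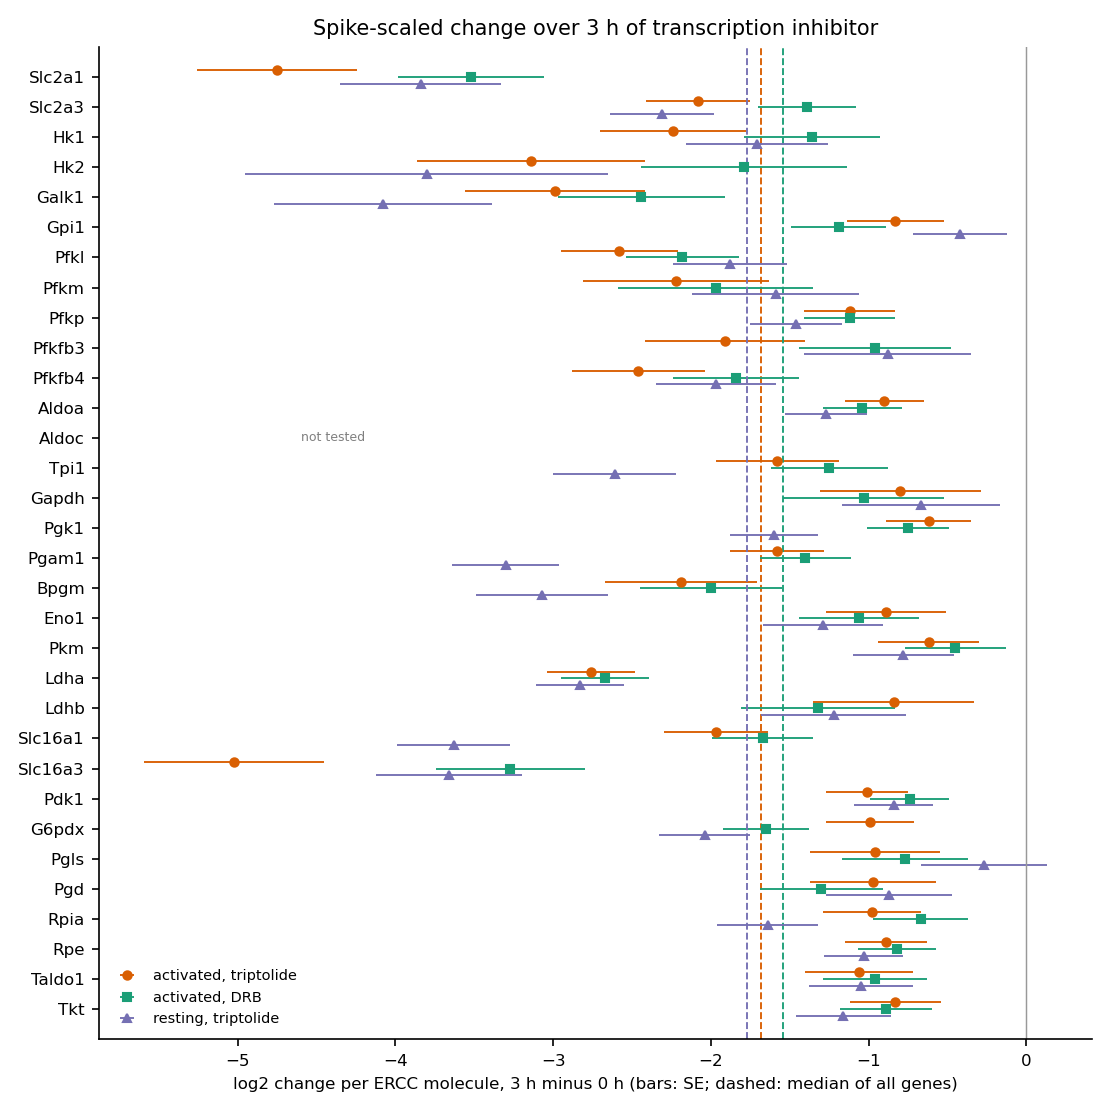
Spike-scaled log2 change from 0 to 3 h after transcription inhibition for the 31 tested members in activated cells with triptolide, activated cells with DRB and resting cells with triptolide. Bars are SE and dashed lines are the medians of all genes. Slc2a1, Slc16a3 and Ldha lie left of the medians in all 3 arms, and Pgam1 and Slc16a1 lie left of it in resting cells and near it in activated cells.

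Pgam1 and Slc16a1 were lost at different speeds in the 2 states. In activated cells with triptolide Pgam1 stood at 0.876, 1.95 and 1.08 counts per 1000 ERCC counts at 3 h, against 4.56, 4.18 and 2.63 at 0 h, which leaves 33.5%. In resting cells it stood at 0.149, 0.119 and 0.132 at 3 h, against 1.59, 1.11 and 1.21 at 0 h, which leaves 10.2%. For Slc16a1 the share left was 25.6% in activated and 8.08% in resting cells with triptolide, and in DRB 31.4% of Slc16a1 and 37.8% of Pgam1 were left in activated cells. The difference between states was tested in exon counts as the 3 h change in activated cells minus that in resting cells, and came to 1.55 ± 0.31 for Pgam1 (adjusted p = 0.000519) and 1.56 ± 0.31 for Slc16a1 (adjusted p = 0.00049).

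The same test called 2 more members, G6pdx at 0.97 ± 0.31 (adjusted p = 0.039) and Pgk1 at 0.91 ± 0.28 (adjusted p = 0.0365). All 4 lost less in activated cells, and 6.47% of all genes were called, 4.07% upward and 2.40% downward. G6pdx kept 50.3% in activated and 24.3% in resting cells with triptolide, but 31.9% in activated cells with DRB, and Pgk1 kept 65.1%, 33.0% and 59.7% in the same 3 arms. Without replicate 4 none of the 4 was called, with Pgam1 at 1.43 and Slc16a1 at 1.60, and the G6pdx and Pgk1 calls were each lost under 5 of 11 alternatives. Ldha, at -0.01 ± 0.26, was not called.

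Relative to the typical mRNA, rather than per spike-in molecule, 11 members rose and 5 fell in activated cells with triptolide, 9 rose and 4 fell with DRB, and 8 rose and 9 fell in resting cells with triptolide, where 47.6%, 39.8% and 56.8% of all genes were called. Of all genes 21.5%, 17.9% and 26.6% rose and 26.1%, 21.9% and 30.3% fell. RLE scaling shifts the median gene by -0.23, -0.19 and -0.26 in these comparisons and gives 3 up and 8 down, 6 up and 5 down, and 3 up and 10 down. Without replicate 4 the counts of called members were 8, 5 and 12. Falls of Ldha (-1.14, -1.11 and -1.13) and Slc2a1 (-2.95, -2.0 and -2.1) were called in the 3 arms under each alternative run. The direction of the slow members thus depends on the scaling, and levels per spike-in molecule are the ones described above. In introns 3 members rose and 4 fell in activated cells with triptolide, 6 and 2 with DRB, and 4 and 9 in resting cells, where 37.4%, 39.5% and 45.7% of all genes were called. RLE scaling, which shifts the median gene there by 0.24, 0.13 and -0.54, gave 4 up and 2 down with triptolide in activated cells and 2 up and 13 down in resting cells. Without replicate 2 the intron counts were 0, 4 and 9, and without replicate 3 they were 3, 7 and 5.

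Adding a translation inhibitor to the transcription inhibitor asks whether the loss needs translation. Ldha was higher with cycloheximide in each of the 3 arms at 3 h. In activated cells with triptolide it stood at 420, 527 and 446 CPM with cycloheximide, against 247, 183 and 193 CPM without (1.15 ± 0.18, adjusted p = 2.5e-07). In activated cells with DRB it stood at 423, 375 and 444 CPM with cycloheximide, against 183, 265 and 153 CPM without (1.06 ± 0.18, adjusted p = 4.43e-06). In resting cells with triptolide it stood at 207, 183 and 225 CPM with cycloheximide, against 120, 103 and 115 CPM without (0.86 ± 0.18, adjusted p = 0.000119). No group overlapped its partner, and these 3 calls held under all alternatives run. Per spike-in molecule the changes were 1.80 ± 0.27, 1.82 ± 0.27 and 1.78 ± 0.27, beside medians of 0.62, 0.59 and 0.86 for all genes.

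Harringtonine did not give the same for Ldha. With harringtonine it stood at 171, 201 and 148 CPM in activated cells with triptolide, against 247, 183 and 193 CPM without, and was not called there (-0.27 ± 0.18), in DRB (-0.20 ± 0.18) or in resting cells (-0.21 ± 0.18). The direct comparison of the 2 translation inhibitors at 3 h put Ldha higher with cycloheximide than with harringtonine by 1.42 ± 0.18, 1.26 ± 0.18 and 1.07 ± 0.18 in the same 3 arms (adjusted p = 5.82e-09, 3.33e-07 and 3.48e-05). That comparison, chosen after values had been seen, called 4, 4 and 2 members, all higher with cycloheximide, where 4.88%, 3.63% and 2.17% of all genes were called. Without replicate 4 the counts were 2, 2 and 1.

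Relative to the typical mRNA, Pgam1 was lower with either translation inhibitor in activated cells, and most with harringtonine. In activated cells with triptolide it stood at 18.3, 29.1 and 28.4 CPM with harringtonine, against 130, 155 and 196 CPM without (-2.66 ± 0.22, adjusted p = 1.81e-16). In DRB it stood at 42.2, 46.5 and 48.2 CPM with harringtonine, against 159, 247 and 193 CPM without (-2.12 ± 0.21, adjusted p = 2.85e-13). With cycloheximide its levels were 79.1, 109 and 107 CPM in activated cells with triptolide, a log2 change of -0.70 ± 0.20 (adjusted p = 0.00496) and -0.77 ± 0.20 in DRB (adjusted p = 0.00371). Both calls were lost without replicate 4, where the change with triptolide was -0.57. The DRB call was also lost with only the libraries compared and with coding-sequence counts (-0.62 to -0.76 over its 3 losses). None of these groups overlapped. In resting cells harringtonine gave 13.7, 11.5 and 12.5 CPM against 19.9, 22.7 and 26.1 CPM without (-0.89 ± 0.27, adjusted p = 0.0117, lost under 5 of 11 alternatives), and cycloheximide was not called (0.49 ± 0.25). Pgam1 was higher with cycloheximide than with harringtonine by 1.96 ± 0.22 and 1.35 ± 0.21 in activated cells with triptolide and DRB, and by 1.38 ± 0.24 in resting cells. Per spike-in molecule none of the 6 lower glycolysis members, Pgam1 included, was called with cycloheximide in activated cells. Their median changes on that scale were 0.27 with triptolide and 0.35 with DRB, and added harringtonine was not tested on it.

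**Figure D4:**
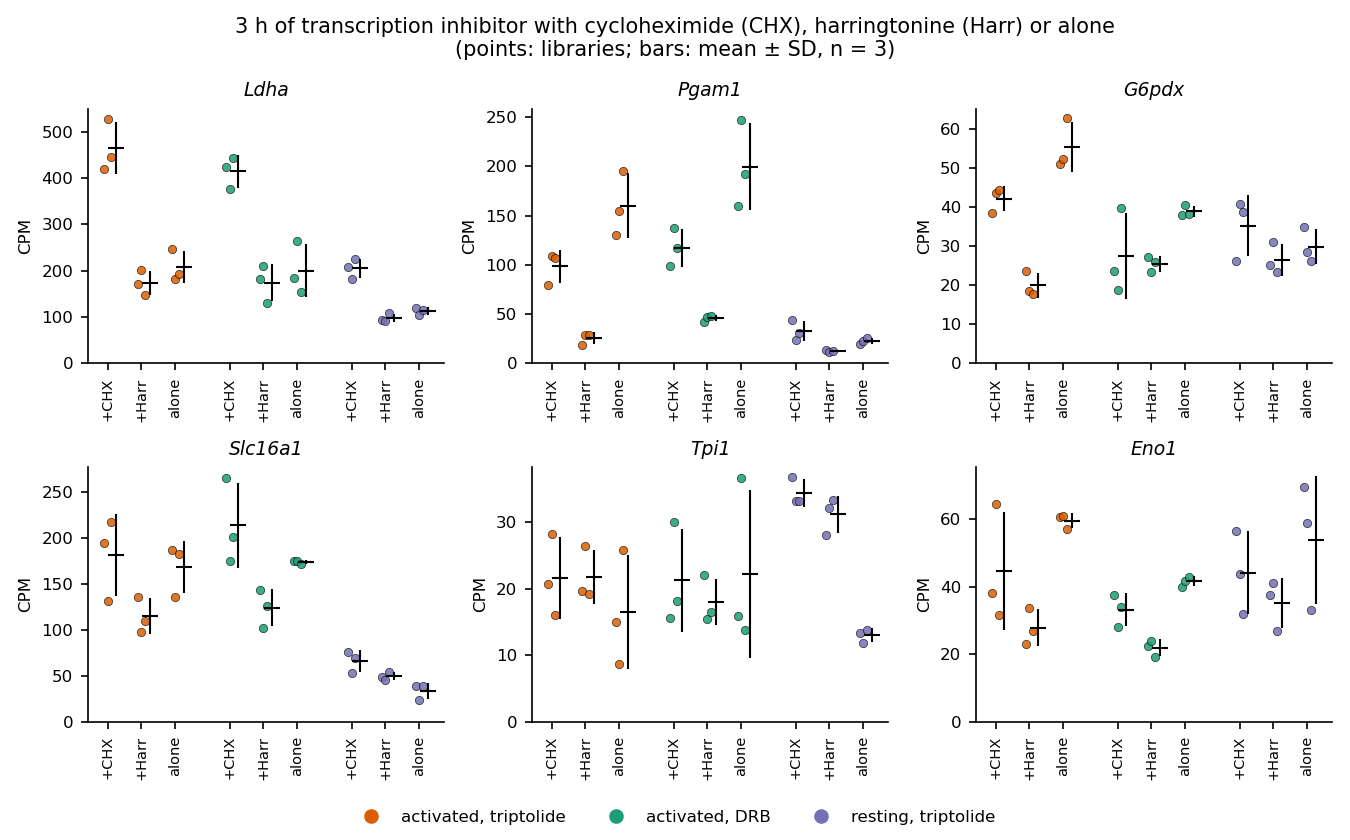
CPM at 3 h of Ldha, Pgam1, G6pdx, Slc16a1, Tpi1 and Eno1 with cycloheximide added, with harringtonine added and with the transcription inhibitor alone, in activated cells with triptolide, activated cells with DRB and resting cells with triptolide. Points are libraries, and lines with bars are the mean ± SD of 3. Ldha with cycloheximide lies above both other groups in each arm, and Pgam1 with harringtonine lies below both.

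Cycloheximide called 3 members higher and 1 lower in activated cells with triptolide, where 27.4% of all genes were called (15.8% higher, 11.6% lower). It called 1 higher and 2 lower with DRB (17.7% of all genes, 10.5% higher and 7.17% lower), and 4 higher and 1 lower in resting cells (35.2%, with 18.8% higher and 16.4% lower). Without replicate 4 the 3 counts were 1, 1 and 4. Per spike-in molecule cycloheximide called 9, 4 and 20 members in the same 3 arms, all of them higher. Of all genes 34.6%, 29.6% and 46.0% were called higher on that scale, and 0.354%, 0.112% and 0.177% lower. Without replicate 4 the spike-scaled counts were 3, 2 and 7. Pfkfb4 was higher with cycloheximide in activated cells with triptolide (1.26 ± 0.33, adjusted p = 0.00234) and in resting cells with triptolide (0.93 ± 0.30, adjusted p = 0.011), calls lost under 2 and 3 of 11 alternatives, without replicate 4 among them. Tpi1 stood at 36.8, 33.2 and 33.2 CPM with cycloheximide in resting cells, against 13.3, 11.8 and 13.8 CPM without (1.40 ± 0.34, adjusted p = 0.000779), and it was also higher there with harringtonine (1.26 ± 0.34, adjusted p = 0.00419). Slc16a1 was higher with cycloheximide in resting cells, at 75.5, 52.3 and 69.4 CPM against 38.2, 23.6 and 39.1 CPM without (0.97 ± 0.24, adjusted p = 0.000867). Gpi1 was lower in resting cells with cycloheximide relative to the typical mRNA (-0.67 ± 0.15, adjusted p = 0.00038), and not called lower per spike-in molecule. The difference between states in the cycloheximide effect called none of the members with edgeR or with DESeq2, 6 had an unadjusted p under 0.05, and 0.289% of all genes were called, 0.102% upward and 0.186% downward. With the replicate number as a block it called 1 member, and with a block in each state 2.

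Harringtonine called 1 member higher and 6 lower in activated cells with triptolide, where 24.7% of all genes were called (14.8% higher, 9.87% lower). It called 5 lower with DRB (18.7% of all genes, 11.3% higher and 7.37% lower), and 1 higher and 3 lower in resting cells (24.0%, with 14.6% higher and 9.48% lower). Without replicate 2 the 3 counts were 3, 3 and 4, and without replicate 4 they were 4, 1 and 0. RLE scaling gives 2 higher and 2 lower in resting cells, and 1 higher and 1 lower for cycloheximide with DRB. G6pdx stood at 23.5, 18.5 and 17.7 CPM with harringtonine in activated cells with triptolide, against 51.1, 52.2 and 62.8 CPM without (-1.47 ± 0.23, adjusted p = 2.16e-07), and its smaller change with DRB (-0.60 ± 0.22) was lost under 8 of 11 alternatives. Eno1, whose reads are shared with copies, was lower by log2 changes of -1.10 ± 0.28 with triptolide and -0.93 ± 0.29 with DRB, and Rpia by -0.90 ± 0.19 and -0.82 ± 0.19. With a block for the replicate number within a state, which the pairing of these libraries allows, the counts were 12 with cycloheximide and triptolide in activated cells, 7 with cycloheximide and DRB and 9 with cycloheximide in resting cells, and 9 with harringtonine in DRB and 9 in resting cells.

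Translation inhibitors alone ask whether these mRNAs need new protein while transcription goes on. In activated cells 3 h of cycloheximide lowered 17 members and raised 3, 64.5% of those tested against 30.0% of all genes (15.0% each way), with a member median of -0.78 beside -0.01. Slc16a1 stood at 75.0, 71.7 and 68.9 CPM with cycloheximide, against 431, 381 and 372 CPM without (-2.46 ± 0.21, adjusted p = 6.17e-16). Hk2 stood at 15.8, 6.68 and 17.2 CPM with cycloheximide, against 98.1, 34.7 and 80.7 CPM without (-2.41 ± 0.49, adjusted p = 6.78e-05). Pgam1 stood at 76.0, 92.2 and 81.5 CPM with cycloheximide, against 266, 303 and 264 CPM without (-1.74 ± 0.20, adjusted p = 3.25e-11). None of these groups overlapped, and each treated level was closer to the resting 3 h level than the untreated one was.

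The lower members came from every role: Hk2 and Galk1 at entry, Gpi1, Pfkp, Aldoa and Tpi1 in upper glycolysis, Pgk1, Pgam1, Eno1 and Pkm in lower glycolysis, Ldha and Slc16a1 at the lactate end, and G6pdx, Pgls, Pgd, Rpia and Tkt in the pentose phosphate pathway. Tkt was lower by a log2 change of -1.63 ± 0.22, Pgk1 by -1.59 ± 0.20, Rpia by -1.32 ± 0.19 and Ldha by -0.94 ± 0.17. The 3 members that rose were Pfkfb4 at 1.74 ± 0.31, Pfkfb3 at 1.36 ± 0.35 and Hk1 at 1.11 ± 0.30. Hk1 stood at 142, 82.4 and 102 CPM with cycloheximide against 61.3, 34.7 and 54.2 CPM without, so the 2 hexokinases moved in opposite directions. Harringtonine alone lowered 17 members and raised 4 in activated cells (31.1% of all genes called), with Slc16a1 at -2.31 ± 0.21, Hk2 at -2.48 ± 0.49 and Pgam1 at -1.73 ± 0.20, and raised Pfkfb4, Pfkfb3, Hk1 and Slc2a3. The 2 comparisons share their untreated libraries. The members' summed share of exon counts was 0.264 ± 0.0265% with cycloheximide and 0.261 ± 0.0337% with harringtonine, beside 0.482 ± 0.0418% in untreated activated cells (SD, n = 3).

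In resting cells cycloheximide alone raised 4 and lowered 4 (26.3% of all genes called, 13.8% higher and 12.5% lower), and harringtonine raised 2 and lowered 10 (20.5%, with 9.84% higher and 10.6% lower). RLE scaling, which shifts the median gene by 0.15 and 0.11, gives 5 higher and 1 lower, and 4 higher and 6 lower. With the replicate number as a block within the state the counts were 16 and 21, and without replicate 4 they were 3 and 3. Ldha stood at 131, 151 and 129 CPM with cycloheximide, against 202, 207 and 203 CPM without (-0.57 ± 0.17, adjusted p = 0.00904), a call lost under 5 of 11 alternatives. Slc16a1, at 42.2, 47.3 and 55.4 CPM with cycloheximide and 41.0, 36.4 and 56.4 CPM without, overlapped and was not called.

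**Figure D5:**
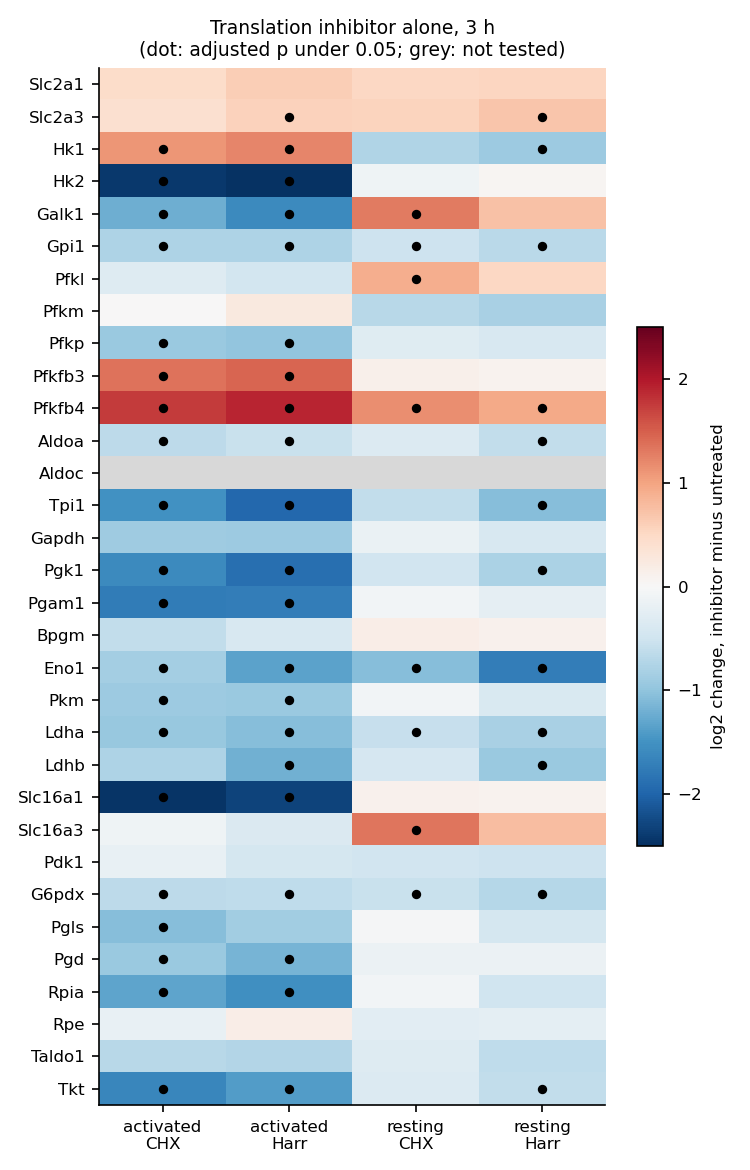
Log2 change at 3 h with cycloheximide or harringtonine alone against untreated cells, in activated and in resting cells, for each member by role. Colour gives the change, a dot marks an adjusted p under 0.05 and grey marks the member that was not tested. Slc16a1, Hk2 and Pgam1 are among the lowest in activated cells and carry no dot in resting cells.

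The difference of the cycloheximide effect between states called 9 members, 8 of them lower in activated cells, where 16.6% of all genes were called (7.95% upward, 8.65% downward). It was -2.56 ± 0.29 for Slc16a1 (adjusted p = 8.6e-10), -2.51 ± 0.54 for Galk1, -1.67 ± 0.28 for Pgam1, -1.44 ± 0.45 for Slc16a3, -1.28 ± 0.30 for Tkt, -1.25 ± 0.27 for Rpia, -1.23 ± 0.32 for Pfkl and -1.11 ± 0.28 for Pgk1, and 1.87 ± 0.43 for Hk1. This comparison was also chosen after values had been seen, and Slc16a1, Pgam1 and Rpia held their call under all alternatives run. Without replicate 4 those 3 were the only ones called, and RLE scaling shifts the median gene by -0.11 and calls 1 upward and 9 downward.

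Genes around the pathway did not follow one direction. Of 40 tested of 59 other genes of glycolysis, pyruvate and pentose use, 3 were higher and 11 lower in activated cells at 0 h, and 9 were higher and 11 lower at 3 h, beside the 26.7% and 53.8% of all genes called at these times. Emb, the embigin partner of monocarboxylate transporters, stood at 53.5, 78.4 and 46.4 CPM in activated cells at 3 h, against 336, 393 and 471 CPM in resting cells (-2.76 ± 0.30, adjusted p = 5.6e-13), and Bsg, the basigin partner of the same transporters, was among those higher. Pck2, mitochondrial phosphoenolpyruvate carboxykinase, stood at 143, 120 and 158 CPM in activated cells, against 45.0, 31.9 and 20.9 CPM in resting cells (2.15 ± 0.28, adjusted p = 4.27e-10). With cycloheximide alone in activated cells 5 of this list were higher and 8 lower, beside 30.0% of all genes called.

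Of 22 tested of 23 tricarboxylic acid cycle genes, 1 was higher and 4 lower at 0 h, and 6 were higher and 4 lower at 3 h in activated cells, beside the same 26.7% and 53.8%. The smallest p-values at 3 h were those of the mitochondrial malic enzyme Me2 (-1.52 ± 0.21, adjusted p = 2.48e-09) and of Idh1, cytosolic isocitrate dehydrogenase (-3.64 ± 0.52, adjusted p = 6.92e-09). Of 22 tested of 24 regulators, 6 were higher and 3 lower at 0 h, and 10 were higher and 2 lower at 3 h, again beside 26.7% and 53.8%. Myc stood at 376, 317 and 342 CPM in activated cells at 3 h, against 8.73, 8.09 and 12.9 CPM in resting cells, and Irf4 at 4856, 4971 and 4639 CPM, against 59.8, 63.8 and 94.7 CPM. Both encode factors known to induce glycolytic genes in activated T cells. With cycloheximide alone in activated cells none of the tricarboxylic acid cycle genes was higher and 6 were lower. Of the regulators 4 were higher and 1 lower there, both lists beside the 30.0% of all genes. Mxd1, an antagonist of MYC, stood at 417, 361 and 405 CPM with cycloheximide, against 50.7, 49.7 and 40.4 CPM without (3.07 ± 0.29, adjusted p = 2.46e-14). Mxd1 was also higher with cycloheximide in resting cells (0.78 ± 0.28, adjusted p = 0.0283). Myc was not called in activated cells (0.43 ± 0.28, adjusted p = 0.266). The part of Mxd1 or Myc in the changes of the members was not tested.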

How the data were processed

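The deposited files hold counts of reads over exons, introns and coding sequence per gene, and of 92 ERCC RNAs, for 105 libraries. Per the submitters' processing notes, the authors used TopHat2 2.0.13, Bowtie 1.1.1.0 and HTSeq with mm10, and deposited raw counts without normalization. Of the 22322 genes, 22124 had a symbol. Reads outside the gene counts made up 75.84 to 97.25% of each library's reads and were left out.

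Exon and intron counts were each filtered with filterByExpr, scaled by TMM and fitted with edgeR 4.0.16 in R 4.3.3 (quasi-likelihood, 35 group means), with Benjamini-Hochberg adjustment over all genes tested. SE is the absolute log2 change divided by the square root of F. Another fit took the ERCC sum as library size. The exon and spike-scaled fits were tested on simulated data. Chi-square per degree of freedom between replicates, over 105 pairs, was at least 3.185 without the shallowest library and 1.145 with it. DESeq2 1.42.0, RLE factors, no filter, coding-sequence counts and left-out libraries were alternatives. Figures used Python 3.11.15 and matplotlib 3.10.9. Copies were sought by BLAST among GENCODE M21 transcripts.

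The members and gene lists were chosen with earlier results of these data known. All 32 members are described. Each other list is given by its counts, and up to 2 genes by smallest p and 2 by abundance could be named. With cycloheximide alone, Myc in activated cells and Mxd1 in resting cells were named outside that rule. The change of the gap over time, the state difference of cycloheximide alone and the 3 comparisons of cycloheximide with harringtonine were chosen after values were seen. Same-numbered libraries of a state deviated together (mean correlation 0.346, other numbers -0.172). Deviations were taken from the mean of each group, so the negative value for other numbers follows from the positive one and adds no support. Every pair's correlation passed 0.1 within states, except for resting cells over time and harringtonine with triptolide in activated cells, and not between states.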

Additional observations from a re-analysis of the deposited data

Results flagged for a closer look

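The effects below differ between activated and resting cells or between times by a test of the difference itself (edgeR, adjusted p under 0.05), with 3 libraries in each of 4 groups. Over 3 h of triptolide the loss in activated cells minus that in resting cells was 1.55 for Pgam1, 1.56 for Slc16a1, 0.97 for G6pdx and 0.91 for Pgk1 on the log2 scale, so all 4 lost less in activated cells.

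Between 0 and 3 h without inhibitor the gap between activated and resting cells widened by 2.79 for Galk1, 2.09 for Slc16a1, 1.32 for Tpi1, 1.27 for Pgk1, 1.13 for Ldha, 1.1 for Pgam1, 1.06 for Pfkp and 1.03 for Rpia, and moved by -1.66 for Pdk1.

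The effect of cycloheximide alone at 3 h, activated minus resting, was -2.56 for Slc16a1, -2.51 for Galk1, -1.67 for Pgam1, -1.44 for Slc16a3, -1.28 for Tkt, -1.25 for Rpia, -1.23 for Pfkl and -1.11 for Pgk1, and 1.87 for Hk1. Slc16a1, Pgam1 and Pgk1 appear in all 3 comparisons. The gap and cycloheximide comparisons share the untreated 3 h libraries with opposite sign, so an extreme value there enters both. The triptolide comparison shares no library with them. Without replicate 4 the call of Pgk1 was lost in all 3 comparisons. That of Pgam1 was lost in the triptolide and gap comparisons, and that of Slc16a1 in the triptolide comparison.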

How the results depend on the processing

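Of 424 calls of members, 191 held under all alternatives run and 233 were lost under at least 1; none reversed, and the replicate blocks ended 0 calls. Causes of the moves below were not tested. Numbers are members called under the alternative, with the main count in brackets. With coding-sequence counts these were 2 (4) for cycloheximide with triptolide in activated cells, and for harringtonine 3 (5) with DRB and 2 (4) in resting cells with triptolide. With no filter they were 2 (4) for the state difference in loss under triptolide, 4 (7), 3 (5) and 2 (4) for harringtonine with triptolide, with DRB and in resting cells, 6 (12) for harringtonine alone in resting cells and 3 (7) for introns under triptolide in activated cells. With only the libraries compared they were 8 (13) for loss under DRB, 2 (4) for the state difference in loss, 1 (3) for cycloheximide with DRB, 4 (7), 1 (5) and 2 (4) for harringtonine as above, and 2 (4) and 1 (2) for cycloheximide against harringtonine with DRB and in resting cells. With 1 replicate block they were 1 (0) for the state difference of cycloheximide under triptolide and 8 (4) for cycloheximide with DRB, spike-scaled. With the replicate block within each cell state they were 17 (11) for activated minus resting at triptolide 0 h, 10 (5) for its introns, 11 (4) for resting cells over time, 7 (4) for the state difference in loss, 12 (4), 7 (3) and 9 (5) for cycloheximide with triptolide, with DRB and in resting cells, 2 (0) for its state difference, 9 (5) and 9 (4) for harringtonine with DRB and in resting cells, 16 (8) and 21 (12) for cycloheximide and harringtonine alone in resting cells, 14 (9) for the change of the gap, 17 (9) for the state difference of cycloheximide alone, and 18 (9) and 12 (4) for cycloheximide with triptolide and with DRB in activated cells, spike-scaled. These replicate numbers are shared by resting and activated groups without pairing them.

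Leaving out 1 replicate gave these ranges. Activated minus resting untreated: 6 to 11 (12) at 0 h, 3 to 7 (9) in introns and 2 to 8 (9) spike-scaled, and 16 to 17 (18), 9 to 10 (13) and 14 to 25 (23) at 3 h. At triptolide 0 h: 9 to 11 (11), introns 2 to 4 (5). Over time: 0 to 10 (10) in activated, 1 to 4 (4) in resting cells, 3 to 10 (9) for the gap. Loss over 3 h, as exon, intron and spike-scaled counts: 8 to 15 (16), 0 to 4 (7) and 17 to 30 (28) for triptolide and 5 to 12 (13), 4 to 9 (8) and 17 to 29 (27) for DRB in activated cells, and 12 to 15 (17), 5 to 9 (13) and 21 to 27 (27) in resting cells, with 0 to 4 (4) for the state difference. Cycloheximide added: 1 to 5 (4) with triptolide, 1 to 2 (3) with DRB, 4 to 6 (5) in resting cells and 0 to 1 (0) for the state difference, and spike-scaled 3 to 15 (9), 2 to 7 (4) and 7 to 19 (20). Harringtonine added: 3 to 7 (7), 1 to 3 (5) and 0 to 4 (4). Cycloheximide against harringtonine: 2 to 4 (4), 2 to 3 (4) and 1 to 2 (2). Alone: cycloheximide 14 to 17 (20) in activated and 3 to 6 (8) in resting cells, harringtonine 17 to 18 (21) and 3 to 8 (12), and 3 to 10 (9) for the state difference. Depth limits the genes at or near 0 in the shallow activated 0 h library.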

Other observations

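Slc2a2, the glucose transporter GLUT2 and one of the neighbouring genes, was singled out after its values were seen. It stood at 121, 120 and 129 CPM after 3 h of triptolide in activated cells, against 0, 0.483 and 0 CPM at 0 h (log2 change 9.03 ± 0.93, edgeR adjusted p = 1.55e-12). After 3 h of DRB it stood at 34.0, 12.7 and 71.5 CPM, against 0.311, 0 and 0 CPM at 0 h (adjusted p = 4.06e-09). In resting cells it stood at 38.2, 93.6 and 75.9 CPM after 3 h of triptolide, against 0, 0.654 and 0 CPM at 0 h (adjusted p = 3.86e-12). In untreated cells at 3 h it stood at 0.709, 0 and 0.868 CPM in activated and 0, 0 and 0.252 CPM in resting libraries. The fitted log2 change depends on the prior count, since most 0 h libraries hold none of its counts.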
